A study of Homo sapiens with 6 samples.

Results

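The genes of phosphoinositide 3-kinase (PI3K), AKT and mTOR signaling were examined in SW480 cells after PCYT2 knockdown. The set held 40 genes, chosen by name for their role in the pathway and found by Ensembl identifier among the 19746 genes listed in the libraries. The choice was made with earlier results of these data known. Every one of the 40 was listed, and 39 passed the limit for testing, a mean of at least 0.5 FPKM over the 6 libraries. SW480 is an established human colorectal cancer cell line. Cells carried lentiviral short hairpins in a puromycin-selected vector: shNT, a nontargeting hairpin, or 1 of 2 hairpins against PCYT2, named shPCYT2-1 and shPCYT2-2. Each group had 2 RNA-Seq libraries, and all cells received virus and puromycin. No label says that the 2 libraries of a group came from separate cultures, so p-values measure the spread between these libraries, which may be technical. The values were taken as FPKM, a count of fragments divided by gene length and library size. This unit was read from the values themselves, and on that reading levels can be compared between genes per length. Libraries listed between 18879 and 19301 rows and summed to between 396467 and 402612 FPKM. The depth in reads is unknown.

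PI3K enzymes at the plasma membrane phosphorylate an inositol lipid after growth factor receptors are engaged, and adaptors such as IRS2 bring the enzyme to insulin receptors. The lipid recruits AKT, which PDPK1 and mTOR complex 2 activate, while PHLPP phosphatases turn AKT off. AKT restrains the TSC complex, which holds RHEB inactive, and RHEB activates mTOR complex 1 at the lysosome, where Rag GTPases and Ragulator report amino acids and GATOR1 opposes them. The pathway drives growth and protein synthesis in colorectal epithelium and is a frequent site of mutation in colorectal tumors. These are transcript levels, and the pathway is regulated largely through phosphorylation, which was not measured here.

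PCYT2 (ENSG00000185813), the rate-limiting enzyme of the CDP-ethanolamine route to phosphatidylethanolamine, was checked first, against the labels. It was listed at 11.6 and 13.8 FPKM with shNT, 7.11 and 7.36 FPKM with shPCYT2-1, and 6.71 and 6.18 FPKM with shPCYT2-2. No knockdown library reached the lower of the shNT libraries. In bulk RNA, fewer cells with a transcript and less of it per cell cannot be told apart. PCYT2 fell with shPCYT2-1 by 0.73 on the log2 scale (standard error 0.10, limma adjusted p = 0.00205) and with shPCYT2-2 by 0.88 (standard error 0.10, limma adjusted p = 0.00261). The hairpins differed in PCYT2 by -0.15 (limma adjusted p = 0.309), which passed after GC and length adjustment (-0.20, limma adjusted p = 0.0371). With the 4 knockdown libraries taken as 1 group, the log2 fold change was -0.80 (limma adjusted p = 0.115).

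The label was checked against markers of colorectal epithelium. All 10 markers were listed, with KRT8 the most abundant, and KRT20 was under 0.1 FPKM or unlisted in every library. The summed level of the 10 was 8214 and 8772 FPKM with shNT, 8433 and 8528 FPKM with shPCYT2-1, and 6261 and 6558 FPKM with shPCYT2-2. Nearly all of this sum came from the keratins KRT8, KRT18 and KRT19, and it followed them. Of the 9 tested markers, 1 was higher (CDH17) and 3 lower (those keratins) with shPCYT2-2 against shNT, and 0 higher and 1 lower (CDX2) with shPCYT2-1. Between the hairpins, CDX1, CDX2 and CDH17 were higher and the 3 keratins lower with shPCYT2-2 than with shPCYT2-1. CDH1, VIL1, CDX1 and CDH17 were above both shNT libraries in both shPCYT2-2 libraries. Fibroblast markers summed to 2.25 and 2.45 FPKM with shNT, 3.62 and 4.11 FPKM with shPCYT2-1, and 3.79 and 3.59 FPKM with shPCYT2-2, so both shNT libraries were the lowest. LUM was the most abundant of them and COL3A1 was not listed. Of the 2 fibroblast markers tested, LUM rose with shPCYT2-1 by 0.81 (limma adjusted p = 0.00192) and was lower by 0.53 with shPCYT2-2 than with shPCYT2-1 (limma adjusted p = 0.00838), and neither passed with shPCYT2-2 against shNT. Leukocyte markers summed to between 2.31 and 3.23 FPKM, with LYZ the most abundant and PTPRC not listed, and 0 of the 2 tested passed these comparisons. Endothelial markers summed to between 0.513 and 0.769 FPKM, with CDH5 the most abundant, and none was tested. The part of these markers in the results was not tested.

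The pathway was well represented in control cells. With shNT, 17 of the 40 genes averaged at least 10 FPKM, 20 averaged from 1 to under 10 FPKM and 3 were under 1 FPKM. Their median of 8.60 FPKM stood beside a median of 6.89 FPKM over the 12756 tested genes. The highest were DDIT4 (86.5 ± 2.35 FPKM, SD, n = 2), AKT1S1 (85.9 ± 4.46 FPKM) and AKT1 (81.3 ± 5.52 FPKM). The lowest were SGK1 (0.930 ± 0.0224 FPKM), PHLPP2 (0.734 ± 0.0296 FPKM) and INPP4B (0.344 ± 0.0246 FPKM). In this order of levels, 23 of the 39 neighboring pairs had overlapping shNT libraries, including DDIT4 and AKT1S1, and AKT1S1 and AKT1. Within families, 1 gene often held most of the level. PIK3R2 made up 92.9% of the summed FPKM of the class I regulatory subunits, GSK3A 91.9% of the GSK3 pair, and AKT1 66.2% and AKT2 31.8% of the AKT genes. PIK3CB was the highest class I catalytic gene at 54.0%, above PIK3CA at 24.4% and PIK3CD at 21.5%.

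**Figure D1:**
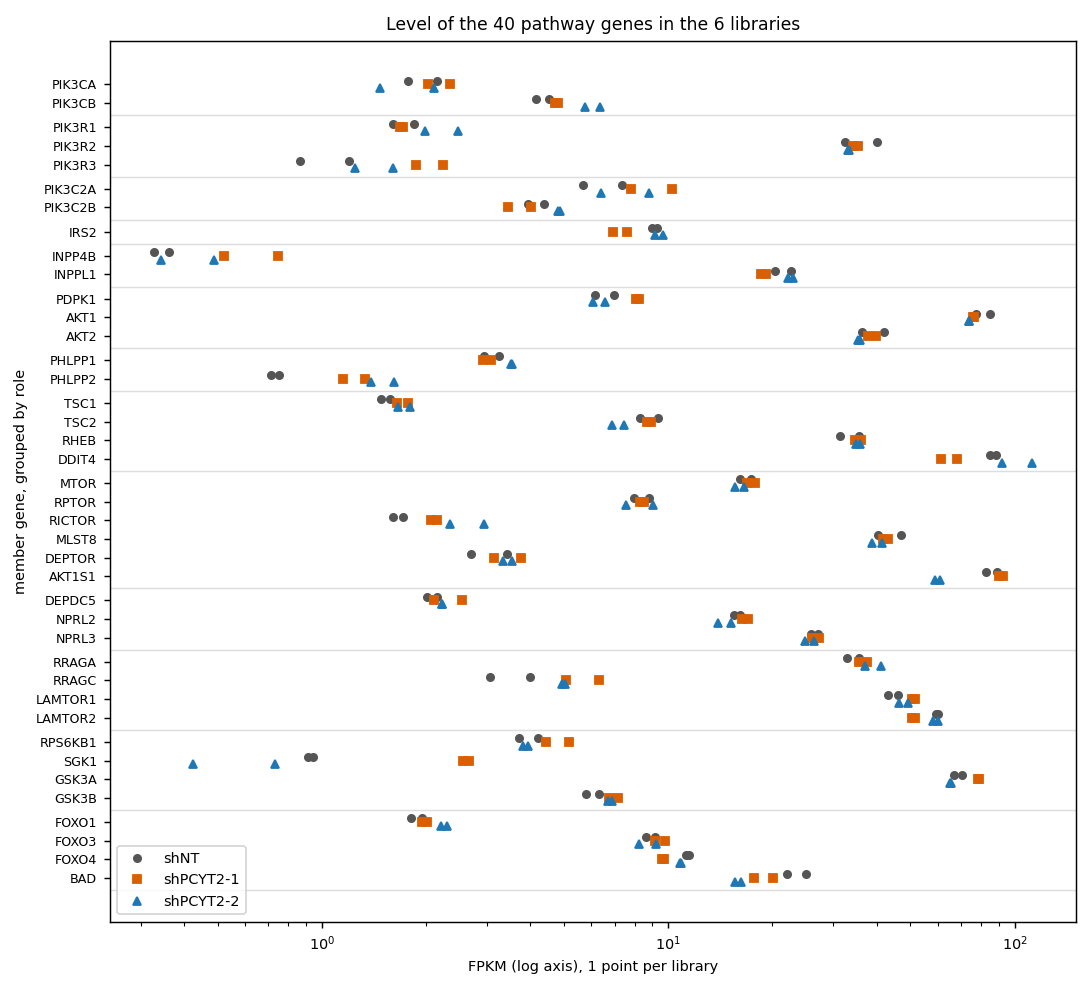
FPKM of the 40 pathway genes on a log axis, 1 point per library, with genes grouped by role and groups marked by color and shape. DDIT4, AKT1S1 and AKT1 lie at the right and INPP4B at the left, and the points of SGK1 do not overlap between the 3 groups.

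Each hairpin changed some of the pathway genes, and the shares were close to or below those of all tested genes. With shPCYT2-1, 9 of the 39 tested members passed (23.1%), 5 higher and 4 lower, where 26.7% of all 12756 tested genes passed (limma adjusted p under 0.05), 16.5% higher and 10.1% lower. The members' median log2 fold change was 0.08, and that of all tested genes was 0.07. With shPCYT2-2, 5 of the 39 passed (12.8%), 3 higher and 2 lower, beside a background of 12.4% (7.69% higher and 4.74% lower), and the medians were 0.04 and 0.04. Between the hairpins, 8 of the 39 members passed (20.5%), 4 higher and 4 lower with shPCYT2-2, beside a background of 27.1% (12.9% higher and 14.2% lower). At an unadjusted p under 0.05, 14, 10 and 15 of the 39 passed in these comparisons, beside 40.9%, 31.1% and 40.2% of all genes. The libraries of the compared groups did not overlap in 22 of 39 members with shPCYT2-1 (69.0% of all genes), in 24 with shPCYT2-2 (57.5%) and in 28 between the hairpins (67.3%). These comparisons share libraries and are not independent. The counts changed when single libraries were left out. A fit without 1 library has less to estimate the spread from, so a lost call need not rest on that library's values. PIK3CB, for example, kept its value of 0.401 with shPCYT2-2 without either shPCYT2-1 library, and its call was lost. With shPCYT2-1, fewer members and a smaller share of all tested genes passed with any 1 of the 6 libraries left out. With shPCYT2-2, fewer of both passed without shNT replicate 2 or any 1 of the knockdown libraries. Between the hairpins, fewer of both passed without any 1 of the knockdown libraries. After GC and length adjustment, 14 members (35.9%) differed between the hairpins, beside 37.1% of all genes. In all, 14 members passed at least 1 of the 3 comparisons and 25 tested members passed none. The share of all tested genes that passed at least 1 was not counted, so this count is no result about the members. All log2 fold changes are on the log2(FPKM + 1) scale, which understates the change of low genes.

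The split of calls by direction depended on scaling. All calls divided into 2109 higher and 1291 lower with shPCYT2-1, and into 1422 and 1758 with median-ratio scaling of the libraries. With shPCYT2-2 the split was 981 higher and 604 lower, against 763 and 879 after that scaling. Between the hairpins, 1648 genes were higher and 1815 lower with shPCYT2-2, against 1862 and 1671. The members went from 5 higher and 4 lower to 4 and 6 with shPCYT2-1, from 3 and 2 to 3 and 3 with shPCYT2-2, and from 4 and 4 to 6 and 4 between the hairpins. Without the expression limit, the calls that were kept among members were SGK1 and LAMTOR2 with shPCYT2-1, AKT1S1 with shPCYT2-2, and 6 between the hairpins (AKT1S1, DDIT4, GSK3A, IRS2, LAMTOR2 and SGK1). These were 5%, 2.5% and 15% of the 40 members, beside 9.27%, 0.628% and 12.3% of 19746 genes. Without a mean-variance trend, GSK3A, BAD and LAMTOR2 no longer passed with shPCYT2-1 (limma adjusted p = 0.103, 0.0597 and 0.0636), nor did INPPL1 and LAMTOR2 between the hairpins (limma adjusted p = 0.0666 and 0.0767). Some members passed in at least 1 alternative and not otherwise. These were AKT1S1, FOXO4, INPPL1, LAMTOR1, PDPK1 and PIK3C2A with shPCYT2-1, PIK3CA, PIK3R2, RRAGC and TSC2 with shPCYT2-2, and BAD, FOXO4, PIK3C2B, PIK3CB, PIK3R1 and TSC2 between the hairpins.

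**Figure D2:**
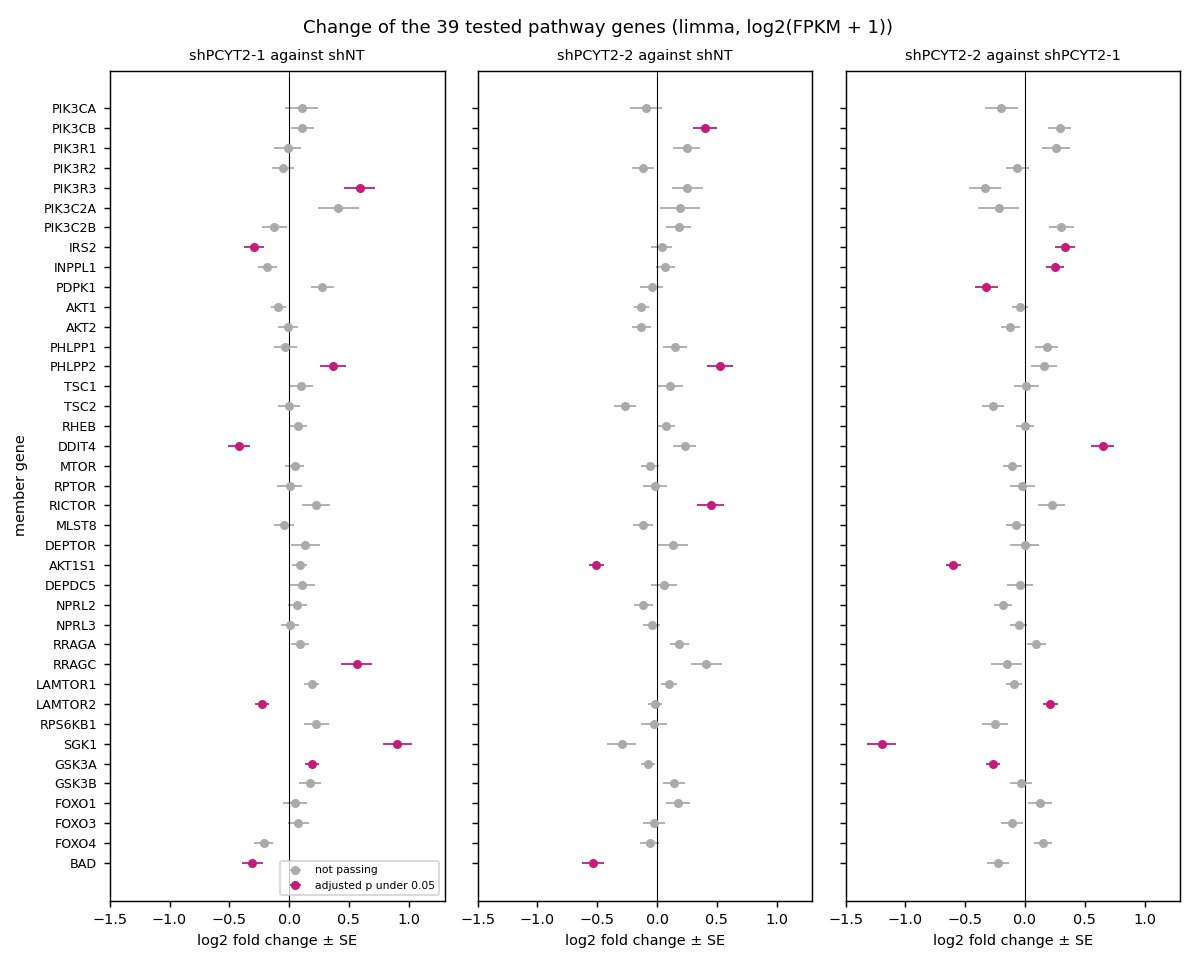
Log2 fold change of each of the 39 tested members, with its standard error, for shPCYT2-1 against shNT, shPCYT2-2 against shNT and shPCYT2-2 against shPCYT2-1. Colored points passed at a limma adjusted p under 0.05, and SGK1 has the lowest value of the panel that compares the hairpins, at -1.20.

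Of the members that are catalytic subunits of class I PI3K, PIK3CB passed 1 comparison and PIK3CA none without further adjustment. PIK3CD lies outside the member set and is named here after its values were seen. It was at 1.502 and 1.942 FPKM with shNT, 1.455 and 1.338 FPKM with shPCYT2-1, and 2.201 and 2.346 FPKM with shPCYT2-2. The hairpins differed in PIK3CD by 0.45 (limma adjusted p = 0.0196). Against shNT its values were -0.18 with shPCYT2-1 and 0.27 with shPCYT2-2 (limma adjusted p = 0.272 and 0.148). PIK3CA, which encodes the p110α catalytic subunit, was at 2.15 and 1.77 FPKM with shNT, 2.35 and 2.02 FPKM with shPCYT2-1, and 2.10 and 1.47 FPKM with shPCYT2-2. Its groups overlapped, and its values were 0.10 with shPCYT2-1 and -0.09 with shPCYT2-2 (limma adjusted p = 0.596 and 0.679). With the trend on GC content and length removed, PIK3CA had -0.336 with shPCYT2-2 and passed (limma adjusted p = 0.0439). PIK3CB (ENSG00000051382, chromosome 3 of GRCh38, 138652699 to 138834938), which encodes p110β, was at 4.52 and 4.15 FPKM with shNT, 4.72 and 4.79 FPKM with shPCYT2-1, and 6.34 and 5.75 FPKM with shPCYT2-2. Both shPCYT2-2 libraries were above the other 4, and PIK3CB rose by 0.40 with that hairpin (standard error 0.10, limma adjusted p = 0.0305), while its value with shPCYT2-1 was 0.11 (limma adjusted p = 0.416). The hairpins differed by 0.29 (standard error 0.10, limma adjusted p = 0.0528), and this passed in 6 alternatives: an expression limit of 1, the replicate block, median-ratio scaling, no variance trend, robust variances, and the GC and length trend removed (0.287 to 0.31, limma adjusted p between 0.0135 and 0.0494). The PIK3CB call with shPCYT2-2 was lost without any 1 of the libraries other than shNT replicate 1 (0.34 to 0.46, limma adjusted p between 0.0503 and 0.15), and with the trend on GC content and length removed (0.22, adjusted p = 0.068).

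Among the regulatory subunits, which stabilize and restrain the catalytic chain, 1 of 3 passed. PIK3R3 (ENSG00000117461, chromosome 1, 46040140 to 46133036), the p55γ subunit, was at 0.867 and 1.20 FPKM with shNT, 2.23 and 1.87 FPKM with shPCYT2-1, and 1.60 and 1.25 FPKM with shPCYT2-2. Its shNT libraries were the lowest of the 6, and the 2 hairpins did not overlap. PIK3R3 rose by 0.59 with shPCYT2-1 (standard error 0.13, limma adjusted p = 0.0129), and its value with shPCYT2-2 was 0.25 (limma adjusted p = 0.22). Its share of the summed regulatory subunits was 2.64% with shNT, 5.35% with shPCYT2-1 and 3.86% with shPCYT2-2. The call was lost without shNT replicate 1 (0.47, limma adjusted p = 0.0615) or shPCYT2-1 replicate 1 (0.50, limma adjusted p = 0.084). PIK3R1 and PIK3R2, and the class II enzymes PIK3C2A and PIK3C2B, passed no comparison. PIK3C2A shares exon bases on the same strand with RPS13, a ribosomal protein gene at 922.8 to 1066 FPKM, so its value is uncertain.

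Upstream of PI3K, the insulin receptor substrate IRS2 (ENSG00000185950, chromosome 13, 109752698 to 109786568) was at 8.95 and 9.26 FPKM with shNT, 6.92 and 7.58 FPKM with shPCYT2-1, and 9.16 and 9.63 FPKM with shPCYT2-2. Both shPCYT2-1 libraries were the lowest of the 6. IRS2 fell with shPCYT2-1 by 0.29 (standard error 0.09, limma adjusted p = 0.0368), and the hairpins differed by 0.33 (standard error 0.09, limma adjusted p = 0.021). The first call was lost without any 1 of the shNT and shPCYT2-1 libraries (-0.35 to -0.23, adjusted p between 0.0664 and 0.27) and after GC and length adjustment (-0.22, adjusted p = 0.0556), and the second without any 1 of the knockdown libraries (0.28 to 0.39, adjusted p between 0.053 and 0.184).

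The inositol lipid phosphatase INPPL1 (SHIP2, ENSG00000165458, chromosome 11, 72223701 to 72239105) was at 20.4 and 22.7 FPKM with shNT, 18.6 and 19.1 FPKM with shPCYT2-1, and 23.0 and 22.2 FPKM with shPCYT2-2. Its shPCYT2-2 libraries overlapped shNT and lay above shPCYT2-1, with a difference between the hairpins of 0.25 (standard error 0.08, limma adjusted p = 0.0407). That call was lost without any 1 of the knockdown libraries (0.23 to 0.27, limma adjusted p between 0.103 and 0.212). INPP4B was at 0.362 and 0.327 FPKM with shNT, 0.521 and 0.748 FPKM with shPCYT2-1, and 0.488 and 0.344 FPKM with shPCYT2-2, under the limit for testing.

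The AKT genes did not pass any comparison. AKT1 (ENSG00000142208) was at 77.4 and 85.2 FPKM with shNT, 76.4 and 76.0 FPKM with shPCYT2-1, and 74.0 and 74.0 FPKM with shPCYT2-2, with log2 fold changes of -0.09 and -0.13 (limma adjusted p = 0.323 and 0.2). AKT2 (ENSG00000105221) was at 36.2 and 42.1 FPKM with shNT, 37.7 and 39.9 FPKM with shPCYT2-1, and 35.8 and 35.2 FPKM with shPCYT2-2, with log2 fold changes of -0.01 and -0.13 (limma adjusted p = 0.951 and 0.303). AKT1 kept 64.9% to 66.2% of the summed AKT level as group means.

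PDPK1, the kinase that phosphorylates AKT in its activation loop, differed between the hairpins. PDPK1 (ENSG00000140992, chromosome 16, 2537964 to 2603188) was at 6.17 and 6.97 FPKM with shNT, 8.25 and 8.08 FPKM with shPCYT2-1, and 6.58 and 6.07 FPKM with shPCYT2-2. The shPCYT2-1 libraries were the highest of the 6, with 0.28 against shNT (limma adjusted p = 0.058), and shPCYT2-2 was lower than shPCYT2-1 by 0.32 (standard error 0.09, limma adjusted p = 0.0331). That call was lost without any 1 of the knockdown libraries (-0.37 to -0.27, limma adjusted p between 0.0599 and 0.173).

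Of the phosphatases that remove the activating phosphate of AKT, PHLPP2 rose with each hairpin. PHLPP2 (ENSG00000040199, chromosome 16, 71637835 to 71724701) was at 0.713 and 0.754 FPKM with shNT, 1.33 and 1.15 FPKM with shPCYT2-1, and 1.61 and 1.38 FPKM with shPCYT2-2. Its shNT libraries were the lowest of the 6. The change was 0.37 with shPCYT2-1 (standard error 0.11, limma adjusted p = 0.0365) and 0.53 with shPCYT2-2 (standard error 0.11, limma adjusted p = 0.0193), and the 2 hairpins share their controls. PHLPP2 went from 19.2% of the summed PHLPP1 and PHLPP2 level with shNT to 29.3% with shPCYT2-1 and 29.8% with shPCYT2-2. PHLPP1, 3.09 ± 0.213 FPKM with shNT, passed no comparison. PHLPP2 is low and shares exon bases with MARVELD3 on the opposite strand, which rose with shPCYT2-1 by 0.32 (limma adjusted p = 0.0368), and strand-specific counting is not stated. The first call was lost without any 1 of the shNT and shPCYT2-1 libraries (0.31 to 0.43, limma adjusted p between 0.0846 and 0.229) and after GC and length adjustment (0.25, adjusted p = 0.076), and the second without either shNT library or shPCYT2-2 replicate 1 (0.46 to 0.54, adjusted p between 0.0507 and 0.109).

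Of the 4 members that act on mTOR complex 1 through TSC (TSC1, TSC2, RHEB and DDIT4), DDIT4 alone passed a comparison, and it moved apart between the hairpins. DDIT4 (REDD1, ENSG00000168209, chromosome 10, 72273920 to 72276036) is a stress-induced inhibitor of the complex. It was at 88.2 and 84.9 FPKM with shNT, 61.2 and 68.0 FPKM with shPCYT2-1, and 91.8 and 112.6 FPKM with shPCYT2-2. The shPCYT2-1 libraries were the lowest and the shPCYT2-2 libraries the highest, with no overlap. DDIT4 fell with shPCYT2-1 by 0.42 (standard error 0.10, limma adjusted p = 0.0142). With shPCYT2-2 its value was 0.23 (standard error 0.10, limma adjusted p = 0.139). The hairpins differed by 0.65 (standard error 0.10, limma adjusted p = 0.00173), and this was kept in all 15 alternatives. The fall with shPCYT2-1 was lost without shPCYT2-1 replicate 1 (-0.34, limma adjusted p = 0.0784). The epithelial marker CDX2 was also low with shPCYT2-1, as were IRS2 and LAMTOR2, at 10.01 and 9.88 FPKM beside 15.1 to 16.9 FPKM in the other 4 libraries. It differed between the hairpins by 0.60 (limma adjusted p = 0.00113), and its part in these results was not tested. The other 8 tested epithelial markers did not pass with shPCYT2-1 (-0.08 for CDX1 to 0.18 for EPCAM), and between the hairpins CDX1 and CDH17 passed in the direction of CDX2 (0.36 and 0.45, limma adjusted p = 0.0297 and 0.0142) while KRT8, KRT18 and KRT19 passed in the opposite one (-0.36, -0.47 and -0.50). TSC1, TSC2 and RHEB passed no comparison. TSC2 was however called with shPCYT2-2 under median-ratio scaling, and between the hairpins after the GC and length trend was removed. TSC2 shares exon bases on the opposite strand with NTHL1 and PKD1. NTHL1, at 25.7 to 33.9 FPKM, had -0.22 and -0.32 with the hairpins (limma adjusted p = 0.0434 and 0.0195). PKD1 had -0.02 and 0.04 (limma adjusted p = 0.891 and 0.799). RHEB has 3 pseudogenes by name. Outside the 40 genes, TBC1D7, the remaining subunit of the TSC complex, is named here after its values were seen. TBC1D7 was at 9.62 and 10.3 FPKM with shNT, 14.8 and 14.8 FPKM with shPCYT2-1, and 11.8 and 11.7 FPKM with shPCYT2-2, and rose by 0.53 with shPCYT2-1 (limma adjusted p = 0.00274).

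The stretch before the start of DDIT4 is shown because DDIT4 had the largest rise of any member from shPCYT2-1 to shPCYT2-2. It is the 240 bases at chr10:72273674-72273913 (RefSeq, GRCh38.p14, plus strand), from 250 to 11 bases before the start, and 68.8% G and C.
DDIT4: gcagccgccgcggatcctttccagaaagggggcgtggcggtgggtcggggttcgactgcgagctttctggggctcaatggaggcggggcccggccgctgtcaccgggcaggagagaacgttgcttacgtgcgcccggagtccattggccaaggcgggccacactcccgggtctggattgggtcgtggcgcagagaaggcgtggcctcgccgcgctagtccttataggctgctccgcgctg
Searched on both strands of the 250 bases before the start were 3 motifs: GTAAACA of FOXO factors, CACGTG, the E-box, and TTGCATC of ATF4. None stands in this stretch, so it has no capitals. The motifs stand in 2.98%, 6.49% and 2.07% of 27305 RefSeq promoters of this length, and in 1, 3 and 1 of the 36 members with an entry. A match is one of letters and not a binding site, and its absence says only that these letters are not in this stretch.

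The mTOR kinase itself passed no comparison. MTOR (ENSG00000198793) was at 16.2 and 17.3 FPKM with shNT, 17.8 and 16.9 FPKM with shPCYT2-1, and 16.5 and 15.6 FPKM with shPCYT2-2, with log2 fold changes of 0.05 and -0.06 (limma adjusted p = 0.683 and 0.65). RPTOR, MLST8 and DEPTOR, its complex partners and an inhibitor, passed no comparison either.

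AKT1S1 (PRAS40, ENSG00000204673, chromosome 19, 49869033 to 49878459) is an inhibitory subunit of mTOR complex 1 and a substrate of AKT. It was at 82.8 and 89.1 FPKM with shNT, 90.4 and 92.4 FPKM with shPCYT2-1, and 61.0 and 59.1 FPKM with shPCYT2-2. Both shPCYT2-2 libraries lay below the other 4, and shPCYT2-1 lay above shNT. AKT1S1 fell with shPCYT2-2 by 0.51 (standard error 0.06, limma adjusted p = 0.0032) and differed between the hairpins by -0.60 (standard error 0.06, limma adjusted p = 0.000371), while its value with shPCYT2-1 was 0.09 (limma adjusted p = 0.314). Both calls were kept in all 15 alternatives. The epithelial keratin KRT8 moved with this result, at 2734 and 2874 FPKM with shPCYT2-2 and between 3540 and 3861 FPKM in the other 4 libraries, and its part in the result was not tested. Epithelial markers outside the keratins did not move this way: EPCAM, CDH1, VIL1 and CDX1 had values above 0 with shPCYT2-2 and did not pass, CDX2 had -0.06 (limma adjusted p = 0.677), and CDH17 rose by 0.50 (limma adjusted p = 0.0212).

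RICTOR, the scaffold of mTOR complex 2, rose with shPCYT2-2. RICTOR (ENSG00000164327, chromosome 5, 38937919 to 39074408) was at 1.72 and 1.60 FPKM with shNT, 2.16 and 2.06 FPKM with shPCYT2-1, and 2.94 and 2.34 FPKM with shPCYT2-2. The 3 groups did not overlap and stood in that order, and the change with shPCYT2-2 was 0.45 (standard error 0.11, limma adjusted p = 0.0358), beside 0.23 with shPCYT2-1 (limma adjusted p = 0.169). The call was lost without shNT replicate 1 (0.48, limma adjusted p = 0.0649), shNT replicate 2 (0.42, adjusted p = 0.161), shPCYT2-1 replicate 2 (0.45, adjusted p = 0.0502) or shPCYT2-2 replicate 1 (0.33, adjusted p = 0.166), and after GC and length adjustment (0.23, adjusted p = 0.1).

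In nutrient sensing, the GATOR1 genes DEPDC5, NPRL2 and NPRL3, which inactivate the Rag GTPases, passed no comparison. RRAGC, 1 of the Rag GTPases that bring mTOR complex 1 to the lysosome, rose with shPCYT2-1. RRAGC (ENSG00000116954, chromosome 1, 38838198 to 38859823) was at 3.98 and 3.06 FPKM with shNT, 6.31 and 5.06 FPKM with shPCYT2-1, and 5.05 and 4.92 FPKM with shPCYT2-2. Its shNT libraries were the lowest of the 6. The change was 0.57 with shPCYT2-1 (standard error 0.13, limma adjusted p = 0.0148) and 0.41 with shPCYT2-2 (standard error 0.13, limma adjusted p = 0.0693). The first was lost without shNT replicate 2 (0.42, limma adjusted p = 0.0872) or shPCYT2-1 replicate 1 (0.43, limma adjusted p = 0.111). The second passed with the replicate block, with robust variances and without shNT replicate 1.

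The 100 bases at chr1:38859835-38859934 (RefSeq, GRCh38.p14, minus strand), from 162 to 63 bases before the start of RRAGC, are shown because they hold the only E-box in the stretches of the 17 members given in full that had an entry. Capitals mark it, 112 bases before the start.
RRAGC: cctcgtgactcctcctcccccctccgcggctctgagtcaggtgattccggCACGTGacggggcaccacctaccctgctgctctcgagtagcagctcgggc
The E-box is the same on both strands.

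LAMTOR2, a Ragulator subunit that anchors Rag GTPases to the lysosome, fell with shPCYT2-1. LAMTOR2 (ENSG00000116586, chromosome 1, 156054752 to 156058510) was at 59.5 and 60.3 FPKM with shNT, 51.6 and 50.4 FPKM with shPCYT2-1, and 60.3 and 58.2 FPKM with shPCYT2-2. It fell with shPCYT2-1 by 0.23 (standard error 0.06, limma adjusted p = 0.0238), and the hairpins differed by 0.21 (standard error 0.06, limma adjusted p = 0.0287). The first call was lost without shNT replicate 2, shPCYT2-1 replicate 1 or shPCYT2-1 replicate 2 (-0.24 to -0.21, limma adjusted p between 0.0614 and 0.149), and the second without any 1 of the knockdown libraries (0.19 to 0.24, adjusted p between 0.0739 and 0.182). Its partner LAMTOR1 and RRAGA passed no comparison.

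Of the kinases downstream, SGK1 had the largest change with shPCYT2-1 and the largest difference between the hairpins of all 39 tested members. SGK1 (ENSG00000118515, chromosome 6, 134169246 to 134318112) encodes a kinase that resembles AKT, is activated by mTOR complex 2 and PDPK1, and is induced by steroids and serum. It was at 0.914 and 0.946 FPKM with shNT, 2.66 and 2.55 FPKM with shPCYT2-1, and 0.425 and 0.734 FPKM with shPCYT2-2. The 3 groups did not overlap, with shPCYT2-1 on top and shPCYT2-2 at the bottom. SGK1 rose by 0.90 with shPCYT2-1 (standard error 0.12, limma adjusted p = 0.00187), 2.81 times the shNT mean in FPKM. Its value with shPCYT2-2 was -0.30 (standard error 0.12, limma adjusted p = 0.134), and the hairpins differed by -1.20 (standard error 0.12, limma adjusted p = 0.000333). The rise and the difference were kept in all 15 alternatives. SGK1 made up 49.8% of the summed SGK1, SGK2 and SGK3 level with shNT, 69.3% with shPCYT2-1 and 27.3% with shPCYT2-2. SGK1 is a low gene here, and the log2 scale understates its change.

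The 250 bases before the start of SGK1 in the annotation, chr6:134318113-134318362 (RefSeq, GRCh38.p14, minus strand), are shown beside those of DDIT4 because these members differed between the hairpins in opposite directions.
SGK1: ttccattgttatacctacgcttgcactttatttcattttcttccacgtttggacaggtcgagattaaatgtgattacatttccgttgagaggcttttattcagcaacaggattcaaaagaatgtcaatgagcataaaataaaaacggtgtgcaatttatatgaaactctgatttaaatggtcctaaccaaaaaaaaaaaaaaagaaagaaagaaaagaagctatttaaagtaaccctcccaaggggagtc
Only 33.6% of these bases are G or C, and none of the motifs stands in them. SGK1 has several starts, and which one SW480 cells use was not measured.

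GSK3A (ENSG00000105723, chromosome 19, 42230186 to 42242625), the kinase of glycogen synthase that AKT inhibits, was at 66.9 and 70.6 FPKM with shNT, 78.9 and 78.5 FPKM with shPCYT2-1, and 65.2 and 65.3 FPKM with shPCYT2-2. The shPCYT2-1 libraries stood apart at the top. GSK3A rose with shPCYT2-1 by 0.19 (standard error 0.06, limma adjusted p = 0.0415), and the hairpins differed by -0.27 (standard error 0.06, limma adjusted p = 0.011). The rise was lost without any 1 of the libraries other than shNT replicate 2 (0.15 to 0.20, limma adjusted p between 0.0599 and 0.224) with median-ratio scaling (0.11, adjusted p = 0.245) and after GC and length adjustment (0.13, adjusted p = 0.0657). The difference was lost without any 1 of the knockdown libraries (-0.27 to -0.26, adjusted p between 0.0541 and 0.0857). GSK3B and RPS6KB1, the S6 kinase gene, passed no comparison.

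At the end of the pathway, BAD fell with each hairpin and FOXO1, FOXO3 and FOXO4 did not pass. BAD (ENSG00000002330, chromosome 11, 64269830 to 64284704), a cell death protein that AKT keeps in check, was at 22.0 and 25.0 FPKM with shNT, 17.6 and 20.0 FPKM with shPCYT2-1, and 16.2 and 15.6 FPKM with shPCYT2-2. Its shNT libraries were the highest of the 6. BAD fell with shPCYT2-1 by 0.31 (standard error 0.09, limma adjusted p = 0.037) and with shPCYT2-2 by 0.53 (standard error 0.09, limma adjusted p = 0.0101). The first call was lost without any 1 of 4 libraries (shNT replicate 2, shPCYT2-1 replicate 1 and each shPCYT2-2 library, -0.31 to -0.22, limma adjusted p between 0.057 and 0.264) and after GC and length adjustment (-0.12, adjusted p = 0.208). The second was lost without shNT replicate 2 or either shPCYT2-2 library (-0.56 to -0.45, adjusted p between 0.055 and 0.0818). BAD shares exon bases with GPR137 on the opposite strand, which had 0.06 and -0.13 with the hairpins (limma adjusted p = 0.746 and 0.497). FOXO1, FOXO3 and FOXO4, transcription factors that AKT excludes from the nucleus, ranged from 1.80 to 11.5 FPKM over the 6 libraries and passed no comparison. FOXO4 was called with shPCYT2-1 under median-ratio scaling, and with shPCYT2-1 and between the hairpins after the GC and length trend was removed.

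**Figure D3:**
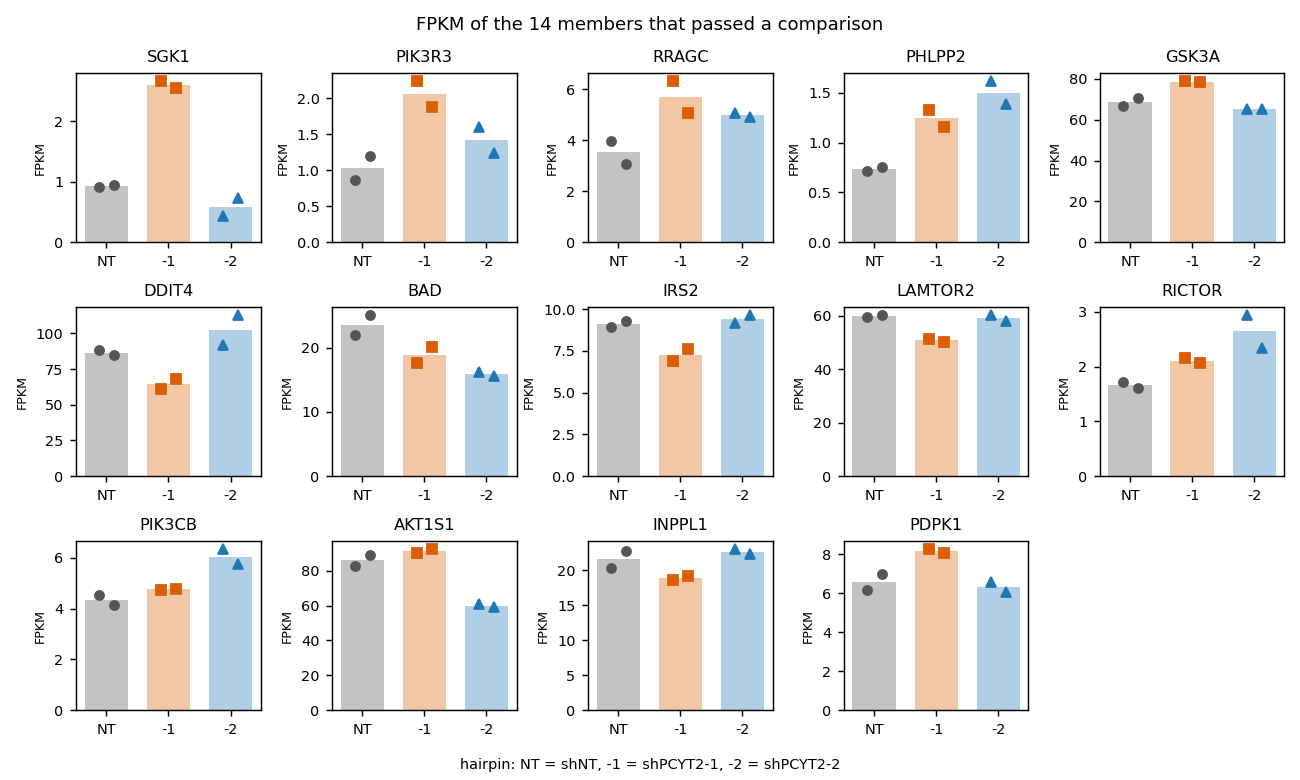
FPKM of the 14 members that passed at least 1 comparison, with bars for group means and points for the 2 libraries of each group, all axes from 0. The points of SGK1 are highest with shPCYT2-1 and lowest with shPCYT2-2, those of DDIT4 the reverse, and those of AKT1S1 are lowest with shPCYT2-2.

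With the 4 knockdown libraries taken as 1 group against shNT, no member passed (0 of 39), beside 1 of 12756 genes (0.00784%) by limma. At an unadjusted p under 0.05, 5 of 39 members and 2128 genes (16.7%) passed, and in 11 of 39 members the 4 knockdown libraries all lay on one side of shNT, beside 30.2% of all genes. When the mean of the 2 hairpins was compared with shNT in the fit with 3 groups, 2142 genes (16.8%) and 6 members (15.4%) passed. These members were AKT1S1, BAD, PHLPP2, PIK3R3, RICTOR and RRAGC.

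Other genes of the pathway, 82 in all, were examined for comparison, and 75 passed the limit for testing. They were chosen with earlier results of these data known, so their shares are no test. With shPCYT2-1, 21 of the 75 passed, 15 higher and 6 lower (28.0%, beside a background of 26.7%). With shPCYT2-2, 15 of the 75 passed, 10 higher and 5 lower (20.0%, beside 12.4%). The hairpins differed in 27 of the 75, 12 higher and 15 lower with shPCYT2-2 (36.0%, beside 27.1%). By median log2 fold change they stood at 0.07, 0.12 and 0.03 in these comparisons, where all tested genes stood at 0.07, 0.04 and -0.02.

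Targets of FOXO factors, whose activity AKT represses, include the largest rises with shPCYT2-1 among these genes. Of the 12 listed as targets, 11 were tested. Of these, 4 rose and 0 fell with shPCYT2-1, 2 rose and 1 fell with shPCYT2-2, and 2 were higher and 5 lower with shPCYT2-2 than with shPCYT2-1. These were 36.4%, 27.3% and 63.6% of the 11, beside 26.7%, 12.4% and 27.1% of all tested genes. The list is short and was chosen with earlier results of these data known, so these shares are no test. FOXO activity was not measured. SOD2, a mitochondrial superoxide dismutase, was at 10.6 and 11.3 FPKM with shNT, 20.7 and 18.4 FPKM with shPCYT2-1, and 11.6 and 10.2 FPKM with shPCYT2-2. It rose by 0.78 with shPCYT2-1 (limma adjusted p = 0.00128) and did not pass with shPCYT2-2 (-0.0047, limma adjusted p = 0.98). BCL2L11 (BIM), a cell death activator, was at 7.06 and 7.10 FPKM with shNT, 12.5 and 12.2 FPKM with shPCYT2-1, and 8.24 and 8.63 FPKM with shPCYT2-2. BCL2L11 rose by 0.72 with shPCYT2-1 (limma adjusted p = 0.00107). On the opposite strand, SOD2 shares exon bases with WTAP and BCL2L11 with MIR4435-2HG, and strand-specific counting is not stated. CITED2, a transcriptional coregulator, was at 3.83 and 3.92 FPKM with shNT, 6.18 and 7.46 FPKM with shPCYT2-1, and 4.21 and 4.71 FPKM with shPCYT2-2, and rose by 0.68 with shPCYT2-1 (limma adjusted p = 0.00383). PDK4, a target that shuts glucose oxidation, was at 0.716 and 0.755 FPKM with shNT, 0.632 and 0.386 FPKM with shPCYT2-1, and 1.31 and 1.19 FPKM with shPCYT2-2, and the hairpins differed by 0.58 (limma adjusted p = 0.00737). That difference was lost without shPCYT2-1 replicate 2 (0.46, limma adjusted p = 0.0587).

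Genes that fell with shPCYT2-1 included PRR5, PHLDA3 and FOXO6. PRR5, a subunit of mTOR complex 2, was at 25.6 and 30.3 FPKM with shNT, 16.9 and 18.7 FPKM with shPCYT2-1, and 20.9 and 21.2 FPKM with shPCYT2-2. PRR5 fell with shPCYT2-1 by 0.62 (limma adjusted p = 0.00291) and with shPCYT2-2 by 0.39 (limma adjusted p = 0.0304), and as it overlaps a readthrough gene its value is uncertain. PHLDA3, which competes with AKT for its lipid, was at 13.7 and 15.2 FPKM with shNT, 9.24 and 9.69 FPKM with shPCYT2-1, and 10.2 and 10.3 FPKM with shPCYT2-2, and fell with the hairpins by 0.56 and 0.46 (limma adjusted p = 0.00302 and 0.014). FOXO6 was at 2.74 and 3.26 FPKM with shNT, 1.50 and 1.53 FPKM with shPCYT2-1, and 2.13 and 2.75 FPKM with shPCYT2-2, and fell with shPCYT2-1 by 0.67 (limma adjusted p = 0.00618). The shPCYT2-2 calls of PRR5 and PHLDA3 were lost without shNT replicate 2 or either shPCYT2-2 library (PRR5 -0.40 to -0.27, limma adjusted p between 0.0962 and 0.154, and PHLDA3 -0.47 to -0.38, adjusted p between 0.0552 and 0.0943).

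Among nutrient sensors, SAMTOR, which reports methyl donor supply, was at 1.96 and 1.48 FPKM with shNT, 2.31 and 1.92 FPKM with shPCYT2-1, and 3.51 and 3.04 FPKM with shPCYT2-2, and rose by 0.66 with shPCYT2-2 (limma adjusted p = 0.0157). FNIP2, a partner of folliculin at the lysosome, rose by 0.58 with shPCYT2-2 (limma adjusted p = 0.0193), from 0.643 and 0.708 FPKM with shNT to 1.74 and 1.28 FPKM. With shPCYT2-1 FNIP2 was at 1.08 and 1.07 FPKM (0.31, limma adjusted p = 0.0879). EIF4E, the cap-binding factor of translation, rose by 0.47 with shPCYT2-2 (limma adjusted p = 0.0276), from 4.26 and 3.46 FPKM to 6.04 and 5.43 FPKM. With shPCYT2-1 EIF4E was at 5.11 and 4.94 FPKM (0.32, limma adjusted p = 0.0634), and neither gene differed between the hairpins beyond the threshold (limma adjusted p = 0.125 for FNIP2 and 0.316 for EIF4E). All 3 calls were lost without shNT replicate 2 (0.53, 0.60 and 0.35, limma adjusted p = 0.0965, 0.0808 and 0.147) and without shPCYT2-2 replicate 1 (0.58, 0.44 and 0.41, adjusted p = 0.111, 0.108 and 0.152). That of FNIP2 was also lost without shNT replicate 1 (0.55, adjusted p = 0.0525) and that of EIF4E without shPCYT2-2 replicate 2 (0.54, adjusted p = 0.0633). EIF4E has 5 pseudogenes by name.

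Several regulators differed between the hairpins. TRIB3, a stress-induced inhibitor of AKT, was the most abundant of these, at 206.8 and 199.1 FPKM with shNT, 247.8 and 264.5 FPKM with shPCYT2-1, and 148.7 and 171.2 FPKM with shPCYT2-2. TRIB3 rose with shPCYT2-1 by 0.33 (limma adjusted p = 0.0127), fell with shPCYT2-2 by 0.34 (limma adjusted p = 0.0215), and differed between the hairpins by -0.68 (limma adjusted p = 0.000461). GAB2, an adaptor of PI3K, was at 6.08 and 5.12 FPKM with shNT, 6.54 and 7.06 FPKM with shPCYT2-1, and 3.68 and 4.32 FPKM with shPCYT2-2, and differed by -0.64 (limma adjusted p = 0.00372). Its fall with shPCYT2-2 (-0.40, limma adjusted p = 0.0488) was lost without any 1 of the 6 libraries (-0.50 to -0.29, adjusted p between 0.0635 and 0.224). SESN1, a leucine sensor and stress gene, was at 1.71 and 1.67 FPKM with shNT, 1.26 and 1.45 FPKM with shPCYT2-1, and 2.67 and 2.50 FPKM with shPCYT2-2, a difference between the hairpins of 0.61 (limma adjusted p = 0.00348). PRR5L, a relative of PRR5, was at 1.83 and 1.71 FPKM with shNT, 0.979 and 0.983 FPKM with shPCYT2-1, and 1.92 and 1.97 FPKM with shPCYT2-2, a difference of 0.57 (limma adjusted p = 0.00403).

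**Figure D4:**
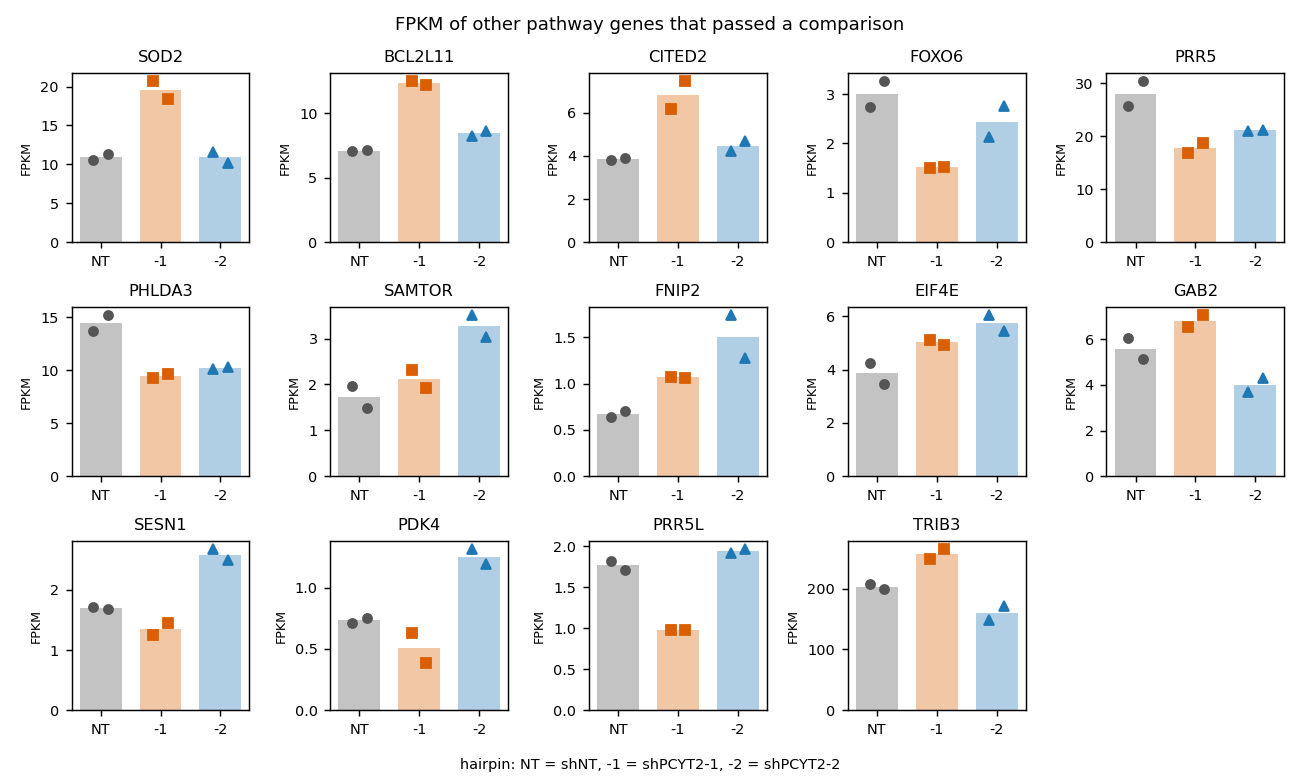
FPKM of other pathway genes that passed a comparison, up to 3 higher and 3 lower per comparison, with bars for group means and points for the 2 libraries of each group. SOD2, BCL2L11 and CITED2 have their highest points with shPCYT2-1, and TRIB3 is high with shPCYT2-1 and low with shPCYT2-2.

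**Figure D5:**
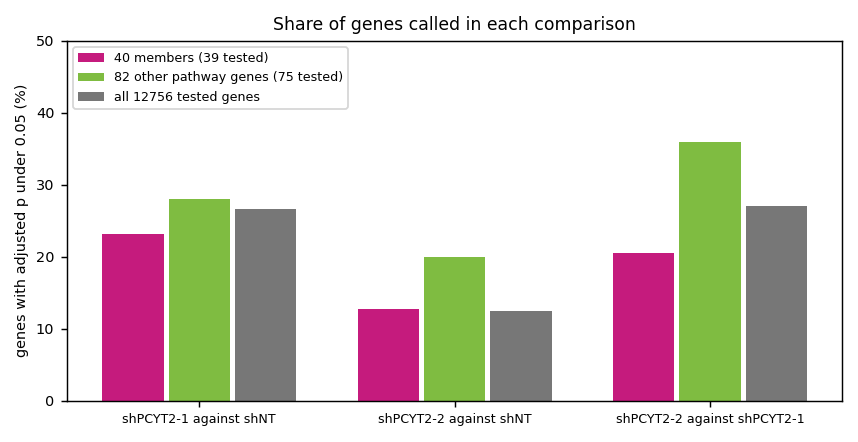
Percent of genes with a limma adjusted p under 0.05 among the 39 tested members, the 75 other tested pathway genes and all 12756 tested genes, for 3 comparisons. The members lie below the background with shPCYT2-1 and between the hairpins (23.1% and 20.5% beside 26.7% and 27.1%) and near it with shPCYT2-2 (12.8% beside 12.4%).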

How the data were processed

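RNA-Seq was performed on total RNA of SW480 cells, with library preparation and sequencing by Novogene. Which of the 2 library kits in the labels served which library is not given. The deposited tables hold 1 value per Ensembl identifier and library, taken as FPKM that the authors had normalized, as read from the values. TPM over part of the genes cannot be told apart from it. The submitters' processing notes name GRCh38, beside the mouse builds GRCm38 and mm10. The aligner and the annotation are not given in the sources used here. Names and positions came from GENCODE release 29, with 1 symbol matched through RefSeq's older symbols. The study's own tests used DESeq on read counts, which were not used here.

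Of 21539 identifiers, 115 repeated ones were summed and 999 groups with identical values were merged. Genes with a mean FPKM of at least 0.5 (12756) were tested on log2(FPKM + 1) with limma 3.58.1 in R 4.3.3 (mean-variance trend, Benjamini-Hochberg adjustment over all tested genes, threshold 0.05). Single hairpins came from a fit of 3 groups and the pooled value from a fit of 2. The procedure was tested on simulated data. Named genes were, per comparison, up to 5 members and up to 3 other pathway genes in each direction with the largest change among those that passed and whose groups did not overlap, together with PCYT2, PIK3CA, PIK3CB, AKT1, AKT2 and MTOR. Members and lists were chosen with earlier results of these data known. The lists of other genes covered PI3K subunits and adaptors, lipid and AKT regulators, TSC and mTOR complex genes, nutrient sensing, downstream kinases and FOXO targets. Motifs were matched in RefSeq promoters (GRCh38.p14). Other settings tried were the grouping, scaling, GC content and length, the variance model, repeated rows, the expression limit, the pseudocount, a replicate block and leaving out each library. No read depth is known, hence counting intervals are absent and precision is set by having 2 libraries per group. Figures were drawn with matplotlib 3.10.9. One withheld item is not reported here.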

Additional observations from a re-analysis of the deposited data

Results flagged for a closer look

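Among the members, 8 differed between the hairpins by the limma test of the difference itself (shPCYT2-2 minus shPCYT2-1, log2 scale). DDIT4 (0.649), IRS2 (0.335), INPPL1 (0.251) and LAMTOR2 (0.213) were higher with shPCYT2-2, and SGK1 (-1.199), AKT1S1 (-0.598), PDPK1 (-0.324) and GSK3A (-0.267) were lower. Among the other pathway genes, SESN1 (0.609), PDK4 (0.582) and PRR5L (0.571) were higher with shPCYT2-2, and SOD2 (-0.787), TRIB3 (-0.679) and GAB2 (-0.643) were lower. The difference between the hairpins in PCYT2 was -0.15 (limma adjusted p = 0.309), and -0.20 with the trend on GC content and length removed (adjusted p = 0.0371). The cause of these differences was not tested.

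Among the 4 knockdown libraries, RRAGC stood at 6.31 FPKM in shPCYT2-1 replicate 1 and at 5.06, 5.05 and 4.92 FPKM in the rest. The gap was 0.901 of the whole range, above Dixon's critical value. This was 1 of the 40 members examined, and chance flags about 1 in 20.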

How the results depend on the processing

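Of the 22 calls of members, 5 were kept in all 15 alternatives: SGK1 with shPCYT2-1 and between the hairpins, DDIT4 between the hairpins, and AKT1S1 with shPCYT2-2 and between the hairpins. None of the 22 reversed. Without the expression limit, the calls fell to 1831 genes and 2 members with shPCYT2-1, 124 genes and 1 member with shPCYT2-2, and rose to 7 genes in the pooled comparison, where more genes were tested. Without a variance trend, shPCYT2-2 gave 1027 genes. With the trend on GC content and length removed, 14 members (35.9%) and PCYT2 (-0.20, limma adjusted p = 0.0371) differed between the hairpins, beside 4728 genes (37.1%). The pooled comparison gave 0 genes with a pseudocount of 0.1, with an expression limit of 1 or with the replicate block. The mean of the hairpins in the fit of 3 groups, which separates the hairpins from the spread, gave 2142 genes (16.8%) and 6 members (15.4%). PCYT2 passed there too (-0.803, limma adjusted p = 0.00334). The members' median turned slightly negative with median-ratio scaling (-0.00214 with shPCYT2-1, -0.00846 with shPCYT2-2 and -0.00743 pooled). Values that had not passed with shPCYT2-1 changed sign there after the GC and length trend was removed (PIK3CA -0.124, PIK3CB -0.0679, AKT1 0.0435, AKT2 0.058) or with median-ratio scaling (MTOR -0.029). The causes were not tested.

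With each library left out in turn, shPCYT2-1 gave 1147 to 3256 genes and 1 to 7 members, shPCYT2-2 gave 125 to 1893 genes and 1 to 5 members with a median of -0.0121 to 0.0618, the hairpins differed in 1662 to 3785 genes and 3 to 8 members, and the pooled comparison gave 0 to 1 gene. The lowest counts came without shPCYT2-1 replicate 1 (1147 and 1662 genes) and without shPCYT2-2 replicate 1 (125 genes). A group left with 1 library was assumed to vary like the others, and fewer libraries were left to estimate the spread. Without 1 library, AKT2 ranged from -0.115 to 0.098 and MTOR from -0.00127 to 0.095 with shPCYT2-1, and PIK3CA from -0.256 to 0.0697 with shPCYT2-2.

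The libraries share only a replicate number: deviations of same-numbered libraries correlated at 0.0027, 0.0619 and 0.191. With the replicate block, 3884 genes (30.4%) and 10 members (25.6%) passed with shPCYT2-1, and 2029 (15.9%) and 6 (15.4%) with shPCYT2-2. Between the hairpins, 3869 genes (30.3%) and 9 members (23.1%) passed, and in the pooled comparison 0 and 0. PCYT2 kept its side in each.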
